A study of Mus musculus with 2 samples.

Results

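Ctla4, Lag3, Tigit, Btla, Cd200 and Maf were followed through single CD4 T cells that recognise the 2W1S peptide. These 6 genes were taken by symbol, through their Ensembl IDs, from the 12432 genes of the deposited table, and all 6 were present. The cells had been taken from the spleen and the peripheral lymph nodes after C57BL/6 mice were colonized with Ca-2W1S, a Candida albicans strain made to express the 2W1S model antigen. They were sorted, captured on a Fluidigm C1 instrument and sequenced with SMART-Seq v4, which reads whole transcripts without molecular identifiers. A March capture gave 82 cells in the runs named Mar1 (25 cells) and Mar17 (57 cells), and an April capture gave 96 cells in the runs Apr13 and Apr21 (48 cells each). Both captures carried the same treatment label, so every comparison is between cells of colonized mice, and no uncolonized animals were analysed here. The labels give neither the age nor the number of mice behind a capture. The p-values, and the SEs and 95% intervals of differences, rest on how differences between groups of cells varied over the 2 captures. That variation was pooled over genes of similar mean level. In the Maf comparison a gene's own variation over the captures had no visible weight, so these SEs do not measure it. The spread between captures may be technical.

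Coinhibitory receptors are surface proteins that lower the response of a T cell when they meet their ligands. Ctla4 competes with the costimulatory receptor Cd28 for shared ligands, Lag3 binds MHC class II, Tigit competes with Cd226 for Pvr, and Btla binds Tnfrsf14. Cd200 is counted with them here, although it is itself the membrane ligand of the inhibitory receptor Cd200r1. Maf is a basic leucine zipper transcription factor known in CD4 T cells for Il4, Il21 and Il10 and for the follicular helper programme, and in mouse T cells exposed to interleukin-27 it has been tied, with Prdm1, to a shared module of coinhibitory receptors. Prdm1 was not analysed here.

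On mm10, with GENCODE vM21, Ctla4 (ENSMUSG00000026011) lies at chr1:60887000-60915832 on the plus strand and Lag3 (ENSMUSG00000030124) at chr6:124904361-124911705 on the minus strand. Chromosome 16 holds Tigit (ENSMUSG00000071552, chr16:43648867-43664146, minus strand), Btla (ENSMUSG00000052013, chr16:45224315-45257670, plus strand) and Cd200 (ENSMUSG00000022661, chr16:45382135-45409053, minus strand). Maf (ENSMUSG00000055435) lies at chr8:115682942-115707794 on the minus strand. The pseudogene Rpl18-ps1 lies within Ctla4 on the same strand; it reached a linear value of 10 in 6.18% of cells, and its rank correlation with Ctla4 was -0.0002 over the 178 cells. The antisense gene Gm15655 overlaps Maf and was above 0 in 3.93% of cells. Whether the authors' counting used strand is not given in the sources used here, so values of Ctla4 and Maf are uncertain by what these overlapping genes contribute.

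Tigit and Ctla4 had the highest rank correlation with Maf among the receptors, as described further on, and their promoters are therefore shown. The sequences are the 250 bases before the transcription start in RefSeq (build GRCm38.p6), 5′ to 3′ on the gene's strand, at chr1:60908775-60909024 for Ctla4 and chr16:43664185-43664434 for Tigit. The RefSeq start of Ctla4 lies inside the longer GENCODE gene, and Rpl18-ps1 (chr1:60900898-60901422) lies before that start. Capitals mark the core of the binding element of NFAT, the calcium-driven activator of T cell genes, searched as GGAAA on both strands (TTTCC on the reverse strand).
Ctla4: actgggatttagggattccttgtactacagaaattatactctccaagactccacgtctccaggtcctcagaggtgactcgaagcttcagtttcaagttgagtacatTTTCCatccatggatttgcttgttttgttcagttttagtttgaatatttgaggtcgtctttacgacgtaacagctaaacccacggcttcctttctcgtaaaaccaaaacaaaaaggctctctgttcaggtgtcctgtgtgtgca
Tigit: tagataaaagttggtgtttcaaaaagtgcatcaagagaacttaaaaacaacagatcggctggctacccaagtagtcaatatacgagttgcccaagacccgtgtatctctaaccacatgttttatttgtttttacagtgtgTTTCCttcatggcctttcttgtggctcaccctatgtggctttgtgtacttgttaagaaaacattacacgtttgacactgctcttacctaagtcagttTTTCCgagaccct
Ctla4 held 1 core, at 140 to 144 bases before the start, and Tigit held 2, between 9 and 110 bases before it. The same windows of Btla and Cd200 held 0. Over 27025 promoters of this length, 55.6% held the core at least at 1 place. The letters TGCTGA, one arm of the Maf recognition element (TCAGCA on the reverse strand), were in 0 of these 4 windows and in 15.8% of all 27025. These matches describe letters and not binding. RefSeq windows for Lag3 and Maf were not used here.

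The deposited log2 values were read as log2(x + 1), with x a TPM-like number. This x, here called the linear value, was taken to be per transcript length, which its sums per cell cannot show. Levels of different genes are set side by side on that reading only. Among the values above 0, 36.6% had a linear value under 1, and the B cell gene Ebf1 reached 1 in 88.8% of cells. Shares are therefore given mainly at a linear value of at least 10, where Ebf1 was found in 2.81% of cells. Markers listed for other cell types ranged at this level from 1.12% of cells (Flt3 and Klrk1) to 24.2% (Cst3). A share at 10 may therefore still hold background. General T cell markers were present: Cd3d and Cd3g were above 0 in 100% of cells, though Ebf1 also was in 99.4%. Lck reached 10 in 94.9%, Cd3g in 90.4% and Cd3d in 89.3%. Cd4 itself was above 0 in 91.0% but reached 10 in only 50%. The CD8 T cell markers Cd8b1 and Cd8a did so in 10.7% and 4.49%. Median genes detected per cell ran from 4859 in Mar1 to 5491 in Mar17, and in 3 cells of Mar1 mitochondrial genes took over 50% of the signal. The read depth behind each value is unknown, and intervals of shares are exact Clopper-Pearson 95% intervals that cover counting error only.

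On that reading, Maf had the highest mean level of the 6 genes and Lag3 the lowest. Over the 2 captures the mean log2 level was 5.50 ± 1.22 for Maf, 3.75 ± 0.54 for Cd200, 3.20 ± 0.18 for Ctla4, 2.81 ± 0.88 for Tigit, 2.27 ± 0.31 for Btla and 1.26 ± 0.26 for Lag3 (SD, n = 2 captures). Neighbours in this order overlapped in the range of their 4 run means, except Btla and Lag3: the lowest run mean of Btla was 1.58 and the highest of Lag3 was 1.52. The plot of single cells by run shows the spread behind these means.

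**Figure D1:**
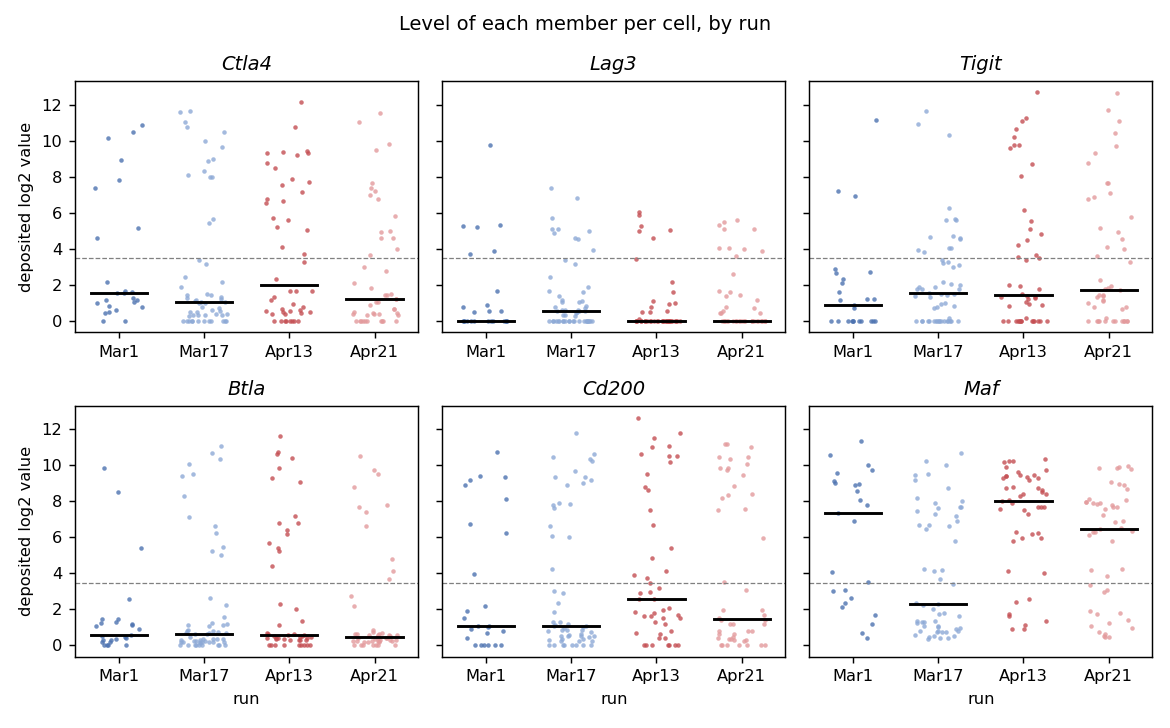
Deposited log2 value (vertical axis) of each gene in each of the 178 cells, by run (horizontal axis); each point is 1 cell, black bars are run medians and the dashed line is a linear value of 10. Most Maf values lie above the line in every run but Mar17, while the receptors have run medians below it and a scatter of high cells.

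Maf, the transcription factor, was above 0 in all 178 cells and spread over the widest range of run medians. Its median log2 level was 7.33 in Mar1, 2.32 in Mar17, 8.03 in Apr13 and 6.48 in Apr21. A linear value of 10 was reached in 64.0% of Mar1, 45.6% of Mar17, 83.3% of Apr13 and 68.8% of Apr21 cells. Mar17 stood lowest on both measures and Apr13 highest, and the 95% intervals of these 2 runs (32.4% to 59.3% and 69.8% to 92.5%) did not overlap. The interval of Mar1 (42.5% to 82.0%) overlapped both.

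Ctla4, which takes ligand away from Cd28, had close means in the captures, 3.08 in March and 3.33 in April. Its run means were 3.30 in Mar1, 2.98 in Mar17, 3.86 in Apr13 and 2.80 in Apr21, and a linear value of 10 was reached in 32.0%, 26.3%, 45.8% and 33.3% of cells. The intervals of the highest and lowest run overlapped. Lag3, the MHC class II receptor, had a median of 0 in Mar1, Apr13 and Apr21 and of 0.56 in Mar17. It reached a linear value of 10 in 24.0% of Mar1, 17.5% of Mar17, 12.5% of Apr13 and 20.8% of Apr21 cells, with overlapping intervals, and a linear value of 100 in 3 of the 178 cells. Those 3 cells were all from March.

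Tigit, the receptor for Pvr, had run means of 1.79 in Mar1, 2.36 in Mar17, 3.41 in Apr13 and 3.45 in Apr21, with both April runs above both March runs. A linear value of 10 was reached in 12%, 26.3%, 39.6% and 39.6% of cells, and a linear value of 100 in 6 of 82 March and 22 of 96 April cells. By capture, 22.0% of the March cells held Tigit at 10 or more (13.6% to 32.5%), against 39.6% in April (29.7% to 50.1%). With 1 sample per month this difference has no test, and the month and the capture cannot be told apart.

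Btla, the Tnfrsf14 receptor, was above 0 in most cells but low in the median, at 0.56 in Mar1, 0.65 in Mar17, 0.58 in Apr13 and 0.49 in Apr21. At a linear value of 10 the shares of cells were 12%, 22.8%, 33.3% and 22.9%, and the median of the cells at or above that level was 8.40 in March and 7.41 in April. Cd200 was the receptor-group gene with the highest mean, at 3.37 in Mar1, 3.37 in Mar17, 4.20 in Apr13 and 4.06 in Apr21. A linear value of 10 was reached in 36.0%, 33.3%, 41.7% and 39.6% of cells. The runs overlapped for both genes, and in cells at or above that level the median of Cd200 was 8.95 in March and 9.50 in April.

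B cells also carry Btla and Cd200, so B cell markers were set beside them. Of 10 listed B cell markers 5 were in the table (Pax5, Ebf1, Cd22, Blnk and Fcer2a), 0 of these were at 0 in all cells, and the others, among them Cd79a, Cd79b and Ms4a1, were not analysed here. The summed linear level of the 5 had a median of 7.19 in the Btla cells at or above a linear value of 10 and 5.55 in those below it in March, and of 5.48 and 5.92 in April. For Cd200 the medians were 4.59 above and 6.19 below in March, and 5.28 above and 6.02 below in April. The sums ranged over 0.28 to 1698 in single cells, and their part in the levels of Btla and Cd200 was not tested.

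A typical cell held 2 or 3 of the 5 receptor genes at a linear value of at least 1. The mean number was 2.48 in Mar1, 2.39 in Mar17, 2.60 in Apr13 and 2.42 in Apr21. No receptor reached that level in 10 of the 178 cells (5.62%, 2.73% to 10.1%), and all 5 did in 8 cells (4.49%, 1.96% to 8.66%). Exactly 3 receptors were found in 23 of 48 Apr13 cells and in 8 of 25 Mar1, 16 of 57 Mar17 and 15 of 48 Apr21 cells. Averaged over cells the captures were close, with 2.41 ± 1.20 receptors in March and 2.51 ± 1.19 in April (SD over cells).

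At a linear value of 10 a typical cell held 1 or 2 of them, and the run means were higher in April. The mean was 1.16 in Mar1, 1.26 in Mar17, 1.73 in Apr13 and 1.56 in Apr21. No receptor at this level was found in 33 cells (18.5%, 13.1% to 25%), and 4 were found in 9 cells. All 5 were found in 0 of 178 cells, with an upper bound of 2.05%. Between captures, 3 or more receptors at this level were found in 10 of 82 March and 19 of 96 April cells, a difference with no test.

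**Figure D2:**
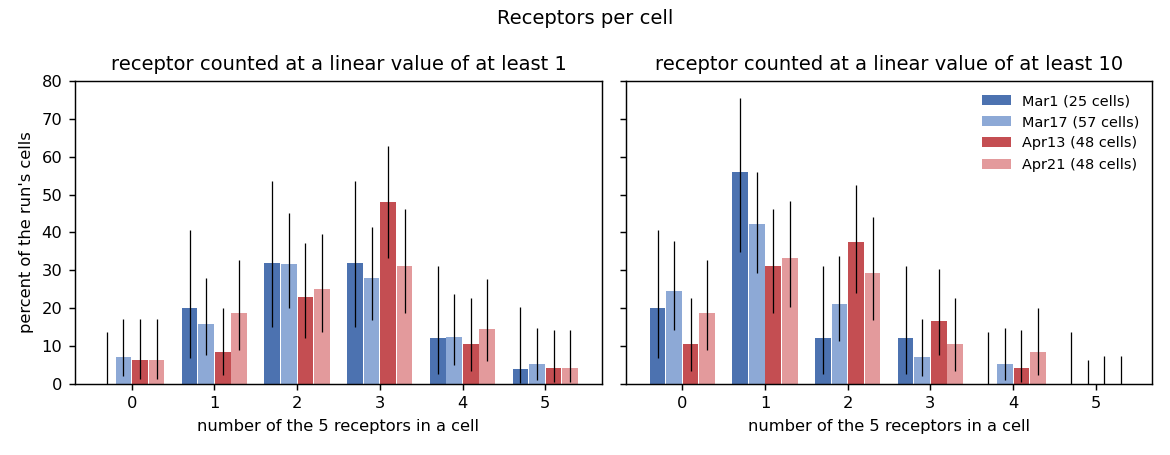
Percent of each run's cells (vertical axis) by the number of the 5 receptor genes reached (horizontal axis), at a linear value of at least 1 (left) and of at least 10 (right); bars are runs and lines are exact 95% intervals. Over all cells 2 and 3 receptors are the commonest numbers at the lower level and 1 and 2 at the higher level, and the intervals of the runs overlap at every number.

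The commonest set at a linear value of 1 was Ctla4 with Tigit and Cd200, in 15 cells, of which 2 were from March and 13 from April. Ctla4 with Cd200 alone followed with 14 cells, 7 from each capture, and Ctla4, Lag3, Tigit and Cd200 together with 11 cells. At a linear value of 10 the commonest set was Cd200 alone (21 cells), before Tigit alone (16 cells), Ctla4 alone (14 cells) and Ctla4 with Cd200 (11 cells). Lag3 alone was found in 10 cells, 8 of them from March, and Btla alone in 8. No set held more than 11.8% of cells at this level other than the empty one.

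Receptor genes were only weakly tied to each other within a capture. Spearman rho over cells is given as a description, since cells of 1 capture share their library preparation and their number of genes detected. The highest mean rho of the captures was 0.224, for Lag3 with Tigit (0.219 over 82 March cells and 0.228 over 96 April cells, positive in 4 of 4 runs). Given the number of genes detected, with which Lag3 itself had a rho of 0.364 in March and 0.201 in April, it was 0.150. Ctla4 with Tigit had 0.143, with 0.335 in Mar17 and -0.038 in Apr21 at its ends, Ctla4 with Cd200 0.117 and Tigit with Btla 0.114. The lowest was Tigit with Cd200 at -0.082, negative in 3 of 4 runs.

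How Lag3 and Tigit met in a cell varied with the level asked for. At a linear value of 1, Tigit was found in 39 of 54 Lag3 cells (72.2%, 58.4% to 83.5%) and in 68 of 124 others (54.8%, 45.7% to 63.8%). The shares were 75% and 46.3% in March and 69.2% and 61.4% in April. At a linear value of 10, Tigit was found in 10 of 32 Lag3 cells (31.2%) and in 46 of 146 cells below it (31.5%). Ctla4 reached that level in 25 of 56 Tigit cells (44.6%, 31.3% to 58.5%) and in 36 of 122 other cells (29.5%, 21.6% to 38.4%), and the intervals overlapped. The gap lay in March, with 55.6% of Tigit cells and 20.3% of other cells, and was seen in Mar17 (60.0% and 14.3%). Mar1 had 1 of 3 Tigit cells (33.3%, 0.84% to 90.6%) and 7 of 22 others (31.8%), too few to show a gap or its absence. In April the shares were 39.5% and 39.7%.

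**Figure D3:**
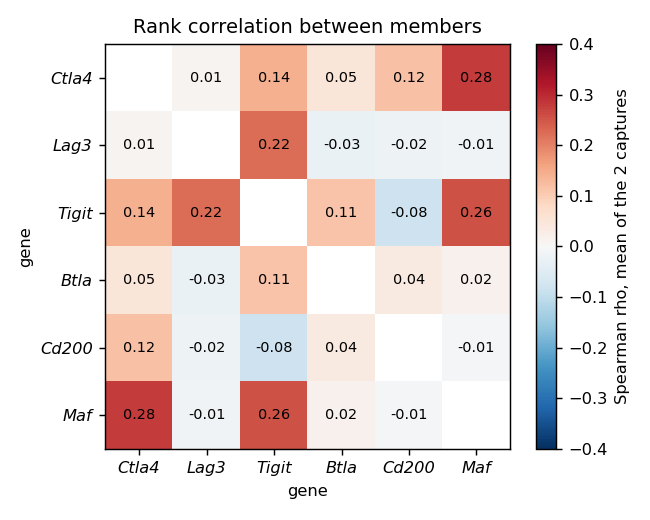
Spearman rho between each pair of the 6 genes, as the mean of the March (82 cells) and April (96 cells) captures; both axes list the genes and colour gives rho. The highest values are those of Maf with Ctla4 (0.28) and with Tigit (0.26) and of Lag3 with Tigit (0.22), and every other pair lies between -0.08 and 0.14.

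Maf was then set against each receptor, the relation tied to the module described above. Ctla4 and Tigit had a positive rho with Maf in 4 of 4 runs, and Lag3, Btla and Cd200 did not. For Tigit rho was 0.388 in Mar1, 0.294 in Mar17, 0.337 in Apr13 and 0.269 in Apr21. For Ctla4 it was 0.319, 0.343, 0.080 and 0.247, so that Apr13, the run with the highest Maf, stood lowest. Among 6911 genes detected in at least 25% of the cells of each capture, 15.9% had a positive rho with Maf in all 4 runs. By the mean of the captures Ctla4 (0.279) ranked 18 and Tigit (0.255) ranked 37 of those 6911 genes.

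Lag3 had a rho with Maf of -0.017 in Mar1, 0.186 in Mar17, -0.110 in Apr13 and -0.097 in Apr21. The values of Btla were 0.246, 0.019, 0.064 and -0.186 in the same order of runs, and those of Cd200 -0.218, 0.044, -0.262 and 0.187. Each of these 3 genes thus had both signs among the runs, and their means over the captures were -0.014, 0.017 and -0.008. Maf itself had a rho with the number of genes detected of 0.475 in Mar1, 0.481 in Mar17, -0.040 in Apr13 and 0.201 in Apr21. Given that number, the mean rho with Maf was 0.255 for Ctla4 and 0.215 for Tigit, and within runs it was 0.099, 0.208, 0.092 and 0.245 for Ctla4 and 0.306, 0.138, 0.339 and 0.227 for Tigit.

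**Figure D4:**
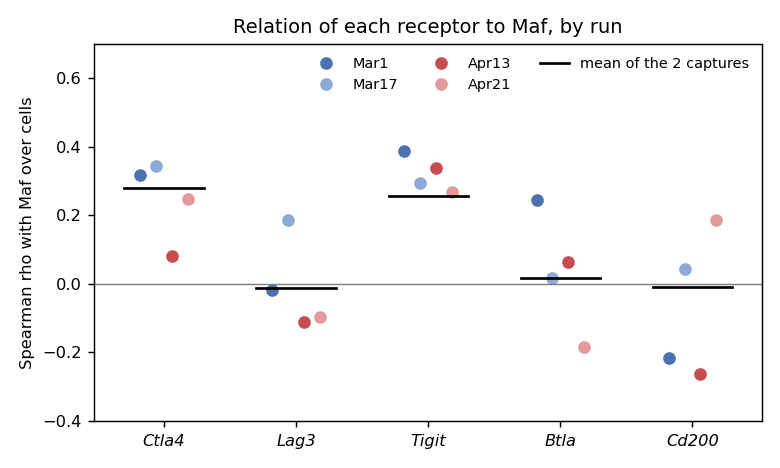
Spearman rho of each receptor gene with Maf over the cells of a run (vertical axis, points coloured by run) for the 5 receptor genes (horizontal axis); black bars are means of the 2 captures. All 4 points lie above 0 for Ctla4 and Tigit, and points lie on both sides of 0 for Lag3, Btla and Cd200.

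For a test over captures, cells were split at the Maf median of their own run into Maf-upper cells (40 in March, 48 in April) and Maf-lower cells (42 and 48). The split is relative: Maf averaged 7.74 in upper and 1.67 in lower cells in March, and 8.77 in upper and 3.97 in lower cells in April, and 25 of the 48 lower April cells still held Maf at a linear value of 10. Mean log2 values per capture and class were compared with limma, with the capture as a block, over 10794 genes other than Maf. Differences are on the log2(value + 1) scale with zeros included, so they understate low genes and are not folds. Of these genes 5 passed an adjusted p of 0.05 (0.0463%), all higher in Maf-upper cells. Of the 5 receptor genes 0 passed, 2 had an unadjusted p below 0.05, as had 8.11% of all genes tested, and Ctla4 and Tigit were higher in 4 of 4 runs, as were 12.5% of all genes. None of the 5 was lower in all 4 runs, against 2.84% of all genes.

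Tigit came closest to the threshold. Its mean log2 level in Maf-upper and Maf-lower cells was 2.92 and 0.75 in Mar1, 3.24 and 1.50 in Mar17, 4.52 and 2.29 in Apr13, and 4.46 and 2.43 in Apr21. Every run had the higher mean in its Maf-upper cells, by 1.74 to 2.22. The difference was 2.00 ± 0.50 (SE, 95% interval 1.03 to 2.97). It came to 1.87 in March and 2.13 in April, and limma gave an unadjusted p of 5.76e-05, rank 7 of all genes, and an adjusted p of 0.0889. Tigit reached a linear value of 10 in 14 of 40 upper and 4 of 42 lower cells in March, and in 27 of 48 upper and 11 of 48 lower cells in April. Without the 3 mostly mitochondrial cells its adjusted p in limma was 0.0404, at a difference of 2.04, the one alternative of 16 with a test in which a receptor passed.

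Ctla4 averaged 4.78 in Maf-upper and 1.94 in Maf-lower cells in Mar1, 4.29 and 1.71 in Mar17, 4.06 and 3.67 in Apr13, and 3.38 and 2.21 in Apr21. The March differences were larger, 2.65 against 0.78 in April, and the difference between captures was not tested. Over both, Ctla4 differed by 1.72 ± 0.52 (SE, 95% interval 0.70 to 2.74), with an adjusted p of 0.222 in limma. It reached a linear value of 10 in 17 of 40 upper and 6 of 42 lower cells in March, and in 22 of 48 upper and 16 of 48 lower cells in April.

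Lag3, Btla and Cd200 gave small differences of mixed sign. Lag3 stood at -0.19 ± 0.37 (95% interval -0.91 to 0.54). It came to 0.35 in March and -0.72 in April, and in Apr13 Lag3 reached a linear value of 10 in 0 of 24 Maf-upper and 6 of 24 Maf-lower cells. Btla differed by 0.30 ± 0.46 (-0.59 to 1.20) and was higher in Maf-upper cells of Mar1, Apr13 and Apr21 but not of Mar17. Cd200 stood at -0.17 ± 0.54 (-1.24 to 0.89), and its runs pulled apart, with 3.09 in upper and 5.32 in lower cells in Apr13 and 5.33 in upper and 2.79 in lower cells in Apr21. The adjusted p in limma was 0.942 for Lag3, 0.919 for Btla and 0.966 for Cd200. These intervals rest on variance pooled over genes and do not measure how a receptor varied between captures or runs. For Cd200 the run differences went from -2.23 in Apr13 to 2.54 in Apr21, both outside its interval. The intervals are therefore not used to set the receptors apart. Differences between receptors were not tested, and a p above the threshold does not show that the genes are level.

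**Figure D5:**
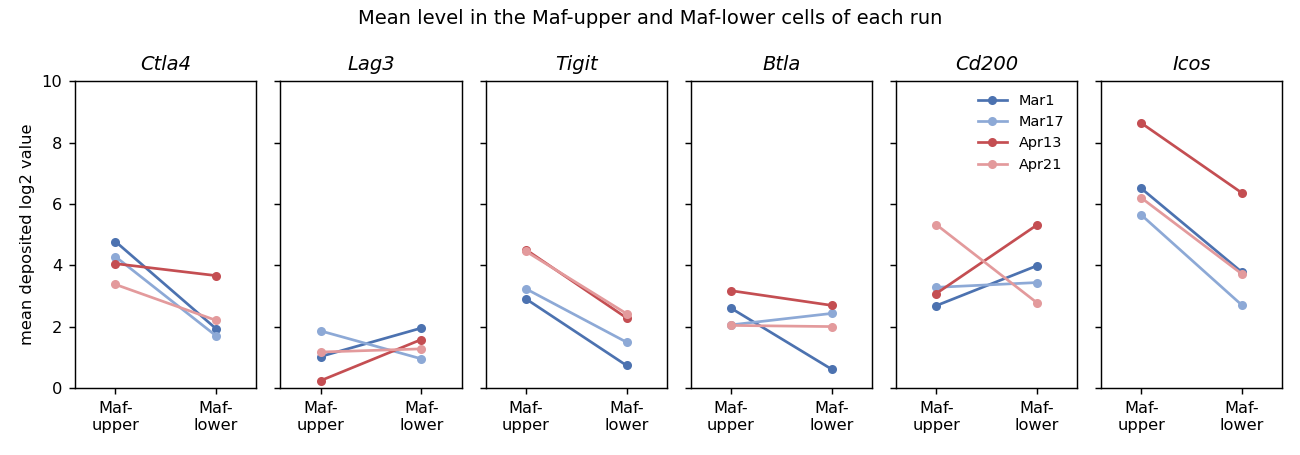
Mean deposited log2 value (vertical axis) in the Maf-upper and Maf-lower cells of each run (horizontal axis), with 1 line per run, for the 5 receptor genes and for Icos, which passed the test. All 4 lines slope down towards the Maf-lower cells for Ctla4, Tigit and Icos, and lines run in both directions for Lag3, Btla and Cd200.

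The 5 genes that passed were Srgn, Cox6a1, Icos, S100a11 and Commd4. Icos is a costimulatory receptor counted below in both the follicular helper and the T cell activation list. It averaged 6.50 in Maf-upper and 3.77 in Maf-lower cells in Mar1, and 5.64 and 2.70 in Mar17. In April it averaged 8.63 and 6.35 in Apr13, and 6.20 and 3.72 in Apr21. It differed by 2.62 ± 0.56 (SE), with an adjusted p of 0.00966 in limma. Srgn, the core protein of secretory granule proteoglycans, differed by 2.89 ± 0.49 with an adjusted p of 5.56e-05 in limma, Cox6a1, a cytochrome c oxidase subunit, by 2.22 ± 0.46, S100a11, a calcium-binding protein, by 2.44 ± 0.55 and Commd4 by 2.25 ± 0.51. All 5 were higher in 4 of 4 runs. In the other direction 0 genes passed, and those with the smallest p were Trbj2-3 (-1.47 ± 0.39), Safb2 (-1.47 ± 0.45), Satb1 (-1.84 ± 0.56), Filip1l (-0.99 ± 0.31) and mt-Co2 (-0.37 ± 0.12), with adjusted p-values of 0.162 to 0.291 in limma. Without Mar17, Apr13 or Apr21, in each case, and without the replicate block, 0 genes passed in limma, and without Mar1 3 did, with 699, 997, 563, 581 and 853 genes at an unadjusted p below 0.05. The count was also 0 with runs as blocks (806), with linear means (519) and with no mean-variance trend (858), and it was 1 with a pseudocount of 10.

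Most genes were a little higher in Maf-upper cells, which bears on every count of direction: 68.3% of all tested genes were higher and the median difference was 0.13. Median genes detected were 5476 in upper and 5133 in lower cells in March, and 4929.5 in upper and 4944.5 in lower cells in April, and in cells matched on genes detected the median was 0.07, with 60.6% of genes higher and 3 past the threshold. After quantile normalization the median was -0.004, 49.3% of genes were higher and 0 genes passed, with 658 at an unadjusted p below 0.05. Changes are therefore read against that shift.

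Follicular helper genes were higher in 14 of 15 tested members by the mean of the captures, with a median difference of 0.47. The captures differed in this: 15 of 15 were higher in March, where 70.1% of all genes were, and 9 of 15 in April (55.6% of all genes), with medians of 0.80 and 0.15. Of them 1 passed, Icos. Sh2d1a, the adaptor SAP of T cell help to B cells, differed by 1.98 ± 0.56 and had 4.26 in upper and 2.92 in lower March cells and 6.46 and 3.84 in April. The transcriptional regulators Tox2 (1.09 ± 0.35) and Pou2af1 (0.46 ± 0.18) did not pass either, with adjusted p-values of 0.217 to 0.435 in limma over the 3 genes. Other members of the list, chosen after their values were seen, differed less. Cxcr5 stood at 0.53 ± 0.43 and Bcl6 at 0.06 ± 0.27, with 0.45 in March and -0.34 in April for Bcl6. Il6st, the 1 lower member, stood at -0.23 ± 0.36. Of genes known in T cells for a tie to Maf, 10 of 10 tested were higher by the mean of the captures with a median of 0.37. But 9 were in March and 7 in April, and again Icos was the 1 that passed. Il4, Il21, Icos, Cxcr5 and Bcl6 were also in the follicular helper list, so the counts of these lists are not independent. The chemokine receptor Ccr6 stood at 0.99 ± 0.35.

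Regulatory T cell genes were higher in 8 of 13 (median 0.41), a share below the 68.3% of all genes, and 0 passed. Foxp3, the factor that defines the lineage, stood at 0.09 ± 0.15, and the most negative of the 13 was the costimulatory receptor Tnfrsf4 at -0.28 ± 0.50, both chosen after their values were seen. The ectoenzyme Nt5e stood at 1.47 ± 0.41, the actin-capping gene Capg at 1.36 ± 0.51, the interleukin receptor chain Il2rb at 1.07 ± 0.36 and the integrin Itgae at 0.50 ± 0.17. Ikzf2, also of this list and named below among the genes nearest to Maf, stood at 1.02 ± 0.39 (1.51 in March, 0.53 in April). Of the 13 genes 5 were lower. Of the Tr1 and interleukin-10 list 4 of 5 tested were higher by the mean of the captures and 2 of 5 in April. Batf, also in this list, had the largest difference, and Ahr stood at 0.54 ± 0.24. Naive or central memory genes were lower in 11 of 14, with a median of -0.15 and 0 past the threshold. Besides Satb1, S1pr1, the receptor for exit from lymph nodes, stood at -1.17 ± 0.46 and Dapl1 at -0.82 ± 0.32, and each of the 3 was higher in 1 of the 4 runs.

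Of the coinhibitory pathway beyond the 5 receptors, 0 genes passed. Other coinhibitory receptors were higher in 5 of 7 tested, with a median of 0.09 against 0.13 for all genes, and Pdcd1, the receptor PD-1, had a difference of 0.72 ± 0.33 (1.29 in March, 0.15 in April). Ligands and counter-receptors were higher in 5 of 8 (median 0.05), among them Cd226, the activating rival of Tigit, at 0.49 ± 0.20. Inhibitory signalling genes were higher in 10 of 17 (median 0.10), with the adaptor Dok2 at 1.12 ± 0.46. The Maf family and its partners were higher in 6 of 14 (median -0.07). The leucine zipper gene Batf had the smallest p of them, at 1.17 ± 0.46, with 2.34 in March and -0.0079 in April, and Fos, a leucine zipper partner, stood at -1.15 ± 0.56.

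T cell activation genes were higher in 6 of 13 (median -0.03), but in 11 in March and 5 in April. Icos, already counted in the lists above, was past the threshold, and Nr4a1, a gene induced by receptor signalling, stood at -0.63 ± 0.25. Mitochondrial transcripts were higher in 6 of 13 and dissociation stress genes in 8 of 12, with 0 of either past the threshold. The transcript mt-Nd5 stood at 0.91 ± 0.44, mt-Co1 at -0.28 ± 0.13 and Hspa1b at -0.32 ± 0.16. CD4 T cell markers were higher in 7 of 7 with a median of 0.61 (7 in March, 5 in April). B cell markers were higher in 3 of 5 with a median of 0.04 (2 in March, 4 in April), and 0 of either list passed. The share of all genes that were higher, beside these counts, was 68.3% (70.1% in March, 55.6% in April). Summed CD4 T cell marker levels were 5984 in upper and 6290 in lower March cells and 8184 and 7695 in April (medians).

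The same relation was read from the number of receptors, which is not independent of the Maf split. Many-receptor cells held at least 3 of the 5 receptor genes at a linear value of 1 (38 in March, 54 in April) and few-receptor cells fewer (44 and 42). Maf averaged 6.59 in many-receptor and 5.51 in few-receptor cells in Mar1, 4.84 and 3.34 in Mar17, 7.11 and 7.05 in Apr13, and 6.47 and 4.82 in Apr21. It was higher in many-receptor cells of 4 of 4 runs, as were 15.6% of 10790 genes (2.57% were lower in all 4), but by 0.06 in Apr13. The difference was 1.23 ± 0.49 (SE, 95% interval 0.26 to 2.20), and Maf did not pass, with an adjusted p of 0.318 in limma. Its unadjusted p, 0.0136 at rank 460, was below 0.05, as was that of 9.56% of all genes in the same direction.

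Maf did not climb evenly with the number of receptors. Its median was 7.21 in the 10 cells with 0 receptors, 4.23 with 1, 4.13 with 2, 7.52 with 3, 7.42 with 4 and 7.78 with 5. In March the medians were 1.81, 2.87, 2.50, 6.80, 5.51 and 8.59 from 0 to 5 receptors, and in April 7.66, 5.80, 7.57, 7.93, 7.83 and 7.78. Cells without a receptor were few and spread widely, from 0.88 to 9.90 over the 6 April cells and from 1.05 to 8.76 over the 4 March cells. Median genes detected were 5447 in many-receptor and 5156.5 in few-receptor cells in March, and 5027 and 4878 in April.

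Of the 10790 genes other than the receptors, 7 passed between these classes (0.0649%), all higher in many-receptor cells. The joining segment Traj27 differed by 2.04 ± 0.40 (adjusted p 0.0119 in limma), Mien1 by 1.82 ± 0.38, the splicing factor Srsf1 by 1.53 ± 0.34, the cohesin acetyltransferase Esco1 by 1.97 ± 0.44, Foxr1 by 1.70 ± 0.38, the autophagy protein Gabarap by 2.17 ± 0.49 and Capg by 1.94 ± 0.44. All 7 were higher in 4 of 4 runs. Without Mar17, Apr13 or Apr21, in each case, and without the replicate block, 0 passed in limma (684, 850, 964 and 695 genes at an unadjusted p below 0.05), and without Mar1 11 did. The count was also 0 in cells matched on genes detected (688 genes at an unadjusted p below 0.05), with runs as blocks (986), with the 25% gene filter (845), with a pseudocount of 10 (869), with linear means (610), with no mean-variance trend (1126), and with receptors counted at any value above 0 (560) or at 10 (797), and it was 1 after quantile normalization. In the other direction 0 passed, and among the smallest p were those of the ribosomal protein gene Rps4x (-1.63 ± 0.41), Abhd11, Gm10136 and St8sia6. Of all genes 70.8% were higher, with a median of 0.15, and B cell marker sums had medians of 7.94 in many-receptor and 4.58 in few-receptor March cells and 6.43 and 4.27 in April, a part that was not tested.

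The genes most like each member were found by the mean over the captures of Spearman rho, among 6911 genes and over 82 March and 96 April cells. For Maf they were Icos (0.391), S100a11 (0.353), the integrin Itgal (0.330), Srgn (0.317) and Ikzf2 (0.309), a transcription factor of the regulatory T cell list. For Tigit they were Kcnmb1 (0.483), a potassium channel subunit, Rad51c (0.333) and Rapgef2 (0.323), and Kcnmb1 had the highest value found for any of the 6 genes, with 0.521, 0.389, 0.463 and 0.613 from Mar1 to Apr21. Ctla4 was nearest to the cytokine signalling inhibitor Socs2 (0.326), Rad51c (0.303) and Ints7 (0.302), and Lag3 to Hmgn1 (0.335), Cfap54 (0.322) and Padi2 (0.303). The nearest of Btla were Slc4a1ap (0.279), Slitrk2 (0.277) and Cwc25 (0.270), and those of Cd200 Gtpbp4 (0.283), Fubp1 (0.265) and Arhgef3 (0.262). The highest of 6911 values is high by selection, and the median rho of all genes was 0.062 for Tigit and 0.006 for Cd200.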

How the data were processed

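Single-cell RNA-seq was measured in 2 samples, the March and April captures, treated as replicates 1 and 2 of 1 group. The deposited table holds log2 values for 12432 genes in 178 cells, on mm10 per the submitters' processing notes. Which aligner and counter the authors ran is not given in the sources used here. The log2(TPM-like + 1) reading comes from sums of linear values of 892206 to 979888 per cell. Such sums do not show whether values were scaled by transcript length. No gene had a 4th-highest log2 value under 2.0003, so low genes had been removed before deposit. Ensembl IDs matched symbols for 12163 genes and not for 269. All columns were mapped to a capture and a run by name, 0 cells were left out, 0 pairs of cells were identical, and no doublet caller was run.

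Cells were not taken as replicates. Mean log2 values per capture and class (4 libraries) were tested with limma 3.58.1 in R 4.3.3, two-sided, with a mean-variance trend, the capture as a block and Benjamini-Hochberg adjustment at 0.05. Genes above 0 in 10% of cells or more entered, leaving out the genes that defined the classes. With 1 residual degree of freedom, each p, SE and interval rests on the variance pooled over genes of similar mean level. This holds mostly in the receptor-number comparison and, to the printed digits, wholly in the Maf comparison. The code was tested on simulated data. Other steps used Python 3.11.15 and SciPy 1.17.1.

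Named genes were the 6 members, in each direction up to 10 genes past the threshold, or up to 5 with the smallest p where fewer passed, both with 1 sign in both captures, the nearest genes by rho, and up to 4 members of each list with the smallest p, restricted, except for Batf, to an unadjusted p below 0.05 and 1 sign in both captures. Members and lists were chosen with earlier results of these data known. Alternatives changed the pseudocount, gene filter, block, averaging, normalization, trend, cells and class definition, and left out replicates; leaving out runs was chosen after seeing the data. Some genes that this rule names are not reported here.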

Additional observations from a re-analysis of the deposited data

How the results depend on the processing

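The counts of genes past the threshold were fragile. In the Maf comparison, where 5 passed, 6 passed without a gene filter and 5 with the 25% filter, without the mitochondrial cells and between the highest and lowest tertile of Maf. With a pseudocount of 10 the count was 1, with cells matched on genes detected 3, without run Mar1 3, and with the split at a linear Maf value of 1 it was 8, of which 0 were among the 5. The count was 0 without the replicate block (581 genes at an unadjusted p below 0.05), with runs as blocks (806), with linear means (519), after quantile normalization (658), with no mean-variance trend (858), and without Mar17 (699), Apr13 (997) or Apr21 (563). In the receptor-number comparison, where 7 passed, it was 9 without a gene filter, 11 without the mitochondrial cells, 11 without Mar1 and 1 after quantile normalization, which moved the median of all genes from 0.153 to 0.001 and the share higher from 70.8% to 50.1%. It was 0 with a pseudocount of 10 (869 at an unadjusted p below 0.05), the 25% filter (845), no replicate block (695), runs as blocks (986), linear means (610), matched cells (688), no trend (1126), receptors at any value above 0 (560) or at 10 (797), and without Mar17 (684), Apr13 (850) or Apr21 (964).

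Ctla4 and Tigit kept a positive difference in all 18 alternatives, at 0.78 to 2.68 and 1.27 to 4.28, and Tigit passed in 1 of them (2.04, without the mitochondrial cells). Btla turned to -0.032 in matched cells and -0.058 without Mar1. Cd200 turned to 0.065 in matched cells, 0.44 between the highest and lowest tertile, 0.85 with the split at 1, 0.00014 without Mar1 and 1.02 without Apr13, and ran from -0.50 to 0.16 leaving out a replicate. Lag3 turned to 0.0083 between the highest and lowest Maf tertile, 0.094 without Mar1 and 0.12 without Apr13, and ran from -0.72 to 0.35 leaving out a replicate. Pou2af1 (-0.17) and mt-Co2 (0.014) turned with the split at 1, and mt-Co1 without Mar1 (0.13) and Apr13 (0.026). The rank correlation of Tigit with Maf was 0.322 as the mean of runs, 0.215 given genes detected, 0.254 without the mitochondrial cells, and 0.275, 0.322, 0.262 and 0.296 without Mar1, Mar17, Apr13 and Apr21. That of Btla was 0.103 without Mar17, and that of Cd200 was -0.0622 as the mean of runs, -0.095 without Mar17, 0.072 without Apr13 and -0.153 without Apr21. The causes were not tested. The labels give 1 group, so replicate numbers pair no groups, and the classes were paired within a capture by the capture block, except where runs were the blocks or no block was used.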
